A study of Mus musculus with 12 samples.

Results

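Mitophagy receptor genes encode the membrane proteins that mark a mitochondrion for removal by autophagy, and 7 genes of this kind are described here. The receptor genes are Bnip3, Bnip3l, Fundc1, Bcl2l13, Fkbp8 and Phb2, and the other is Pink1, a kinase gene of the ubiquitin route. They were chosen by symbol, for what their products do, out of the 24062 genes counted. The choice was made with earlier results of these data known. All 7 had enough reads to be tested in every comparison. The 12 poly(A) RNA-seq libraries come from liver and gastrocnemius, a calf muscle, of 6 female C57BL/6N mice on a chow diet. The mutant mice carried R135W on both copies of Mars2, the gene of the mitochondrial methionyl-tRNA synthetase, where it replaces an arginine by a tryptophan. These were animals 5, 7 and 12, aged 9.0, 7.4 and 8.6 weeks. The wild-type mice (WT) were animals 6, 8 and 9, aged 9.0, 9.0 and 7.4 weeks. The 4 groups of 3 animals are thus liver R135W, liver WT, gastrocnemius R135W and gastrocnemius WT, and each animal number, read from the sample titles, has 1 library of each tissue.

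Total counts ran from 20751583 to 30460237 per library. Levels are CPM, the counts of a gene scaled to the size of its library (sizes were set together over all 12 libraries), and differences are log2 fold changes of R135W over WT from edgeR's quasi-likelihood test. A gene is called where its Benjamini-Hochberg adjusted p over all tested genes is under 0.05. Mars2 RNA averaged 2.88 ± 0.658 CPM in R135W liver and 2.71 ± 0.611 CPM in WT liver, and 9.67 ± 0.895 CPM in R135W muscle and 11.9 ± 0.972 CPM in WT muscle (SD, n = 3 each). It was called in neither tissue (adjusted p = 0.900 in liver and 0.295 in gastrocnemius), and since the allele replaces 1 amino acid its RNA does not check the genotype labels. Of the markers of the labelled tissues, those of hepatocytes summed to at least 72062 CPM in every liver library and at most 40.3 CPM in muscle. Those of myofibres summed to at least 121816 CPM in every muscle library and under 1 CPM in liver.

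In mammalian cells mitophagy runs along a pair of routes. In the receptor route, proteins of the outer membrane such as BNIP3, NIX (the product of Bnip3l), FUNDC1, BCL2L13 and FKBP8 bind LC3 or GABARAP proteins of the growing autophagosome directly, and PHB2 of the inner membrane does so once the outer membrane has ruptured. In the ubiquitin route, the kinase PINK1 builds up on depolarised mitochondria and phosphorylates ubiquitin, and adaptors such as optineurin link the ubiquitin chains to LC3. Bnip3 is a classic target of the hypoxia-inducible factors (HIF), and in skeletal muscle also of FOXO3.

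The promoter of Bnip3 is shown because Bnip3 was the member called between genotypes in both tissues. Bnip3 lies on the minus strand of chromosome 7 at 138890836 to 138909506 in the mm10 annotation of the deposited counts, with 1756 exon bases in 6 exon blocks. The 250 bases before its start, from RefSeq (GRCm38.p6), are chr7:138909507-138909756, minus strand, written 5′ to 3′. Capitals mark matches on either strand to ACGTG and GCGTG, the cores of the HIF binding motif.
Bnip3 promoter: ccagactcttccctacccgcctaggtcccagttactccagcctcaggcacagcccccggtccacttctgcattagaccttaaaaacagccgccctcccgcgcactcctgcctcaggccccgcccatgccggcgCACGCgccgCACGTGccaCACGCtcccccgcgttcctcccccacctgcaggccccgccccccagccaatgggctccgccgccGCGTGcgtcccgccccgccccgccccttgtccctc
ACGTG matched once on each strand, in the palindrome CACGTG that begins 108 bases before the start, so these matches overlap. GCGTG matched 3 times, at 117, 99 and 35 bases before the start. Of 32851 RefSeq promoter windows of the same kind, which reach from 250 bases before to 50 after a start, 19.6% held ACGTG, 32.4% GCGTG and 7.15% CACGTG. Promoters were at hand for 6 of the 7 genes, all but Bnip3l. Fkbp8 held 1 match to each core, Phb2 held 1 to ACGTG, Bcl2l13 and Pink1 held 1 each to GCGTG, and Fundc1 held none. The FOXO motif GTAAACA (3.65% of windows) and the interferon-stimulated response element (3.44%) matched in none of the 6, on either strand. A match is a run of letters and was not tested for binding.

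Bnip3 was lower in R135W mice in both tissues, more deeply so in liver by point estimate. It was the only one of the 7 genes called in either tissue. In liver it stood at 137, 134.7 and 146 CPM in R135W animals 5, 7 and 12, against 194, 279 and 235 CPM in WT animals 6, 8 and 9. The groups did not overlap, and the WT livers varied more among themselves than the R135W livers did. The means were 140 ± 6.19 CPM in R135W liver and 236 ± 42.2 CPM in WT liver (SD, n = 3 each). Bnip3 RNA fell by 41.1% in R135W liver, which is -0.76 on the log2 scale (SE 0.15, 95% interval -1.10 to -0.43, adjusted p = 0.0295, edgeR). Of all genes tested in liver 3.28% were called, 0.524% as lower and 2.76% as higher, and 1 of the 7 mitophagy genes was called lower and 0 higher. In these tissue samples fewer cells of a type and less RNA per cell cannot be told apart.

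In gastrocnemius Bnip3 stood at 187, 199 and 193 CPM in R135W animals 5, 7 and 12, against 246, 240 and 228 CPM in WT animals 6, 8 and 9. Every R135W muscle was again below every WT muscle, with a tight spread in both groups. The means were 193 ± 6.26 CPM in R135W muscle and 238 ± 9.16 CPM in WT muscle (SD, n = 3 each). Bnip3 RNA fell by 19.6% in R135W muscle, which is -0.31 on the log2 scale (SE 0.06, 95% interval -0.44 to -0.19, adjusted p = 0.0430, edgeR). Of all genes tested in muscle 0.875% were called, and 0.333% as lower. Libraries of the 2 genotypes fully apart with R135W below were less rare than calls, at 9.54% of genes in liver and 7.14% in muscle.

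By point estimate Bnip3 differed more in liver than in muscle (interaction -0.46 on the log2 scale, SE 0.17, 95% interval -0.82 to -0.10). It did not pass edgeR's test (unadjusted p = 0.0166, adjusted p = 0.376), and 0.13% of all genes were called in that comparison, with 9.95% at an unadjusted p under 0.05. Among the 12413 genes tested in both tissues, 55 were called lower in liver and 43 in muscle. Bnip3 and Sec24a, a gene for a coat protein of vesicles that leave the endoplasmic reticulum, which was singled out after its values were seen, were the 2 genes called lower in both, 3.64% of the liver genes and 4.65% of the muscle genes. In the other direction 34 genes were called higher in both, 11.3% of 301 in liver and 50% of 68 in muscle. By the animal numbers in the titles both tissues come from the same mice, and then they are not independent.

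**Figure D1:**
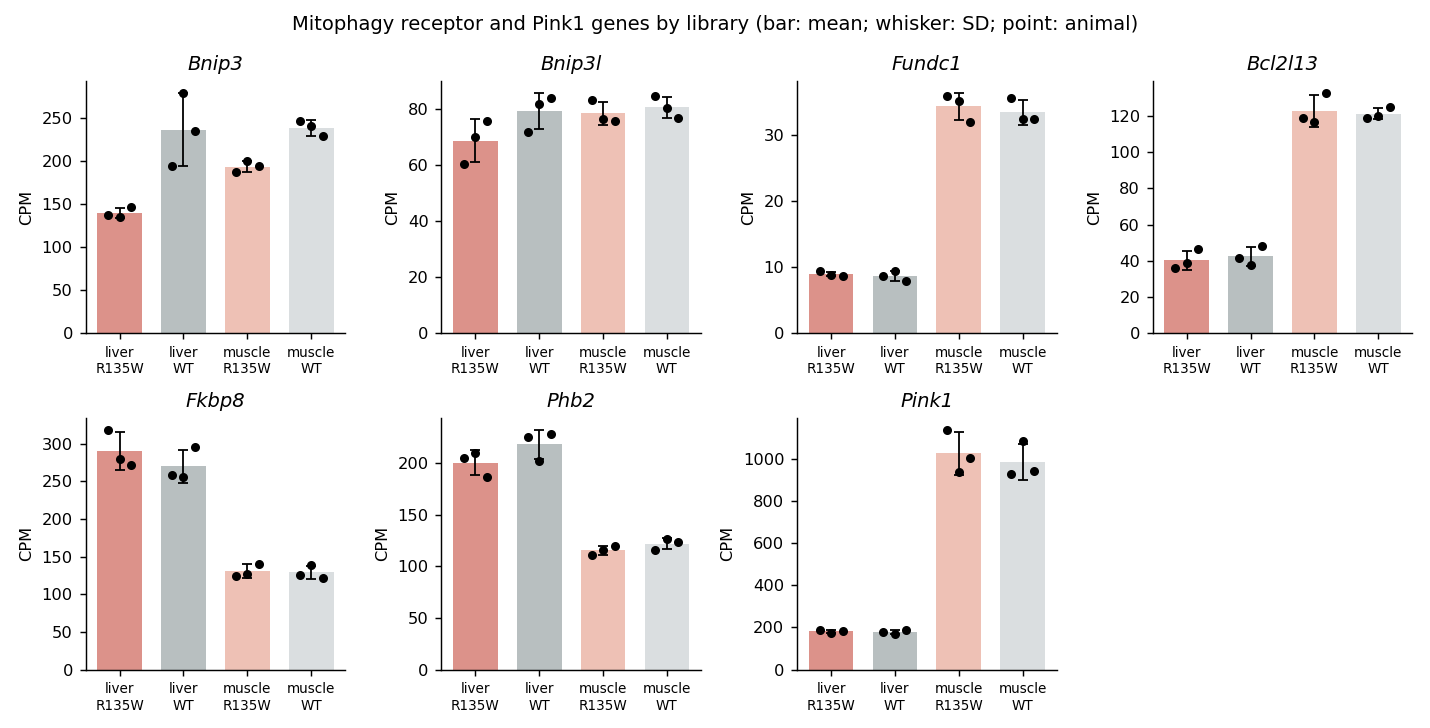
CPM of each of the 7 mitophagy genes by library, for liver R135W, liver WT, muscle R135W and muscle WT, with points for animals, bars for means and whiskers for SD (n = 3 each); each panel has its own axis from 0. Bnip3 shows no overlap between genotypes in either tissue, while the points of the other genes overlap between genotypes, and Pink1, Fundc1 and Bcl2l13 stand higher in muscle than in liver.

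The calls for Bnip3 sat close to the threshold. With age as a covariate the adjusted p was 0.0597 in liver and 0.0526 in muscle, and muscle Bnip3 had an adjusted p of 0.681 when all 12 libraries shared 1 estimate of the spread. In fits that left out 1 library, liver Bnip3 was still called without WT 6 but not without R135W 5, 7 or 12 or WT 8 or 9 (adjusted p between 0.0263 and 0.110), and muscle Bnip3 was called in none of its 6 fits (0.0836 to 0.205). The log2 fold change itself stayed between -0.89 and -0.64 in liver and between -0.34 and -0.29 in muscle in those fits. DESeq2 gave Bnip3 an adjusted p of 0.000109 in liver and 0.00215 in muscle.

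**Figure D2:**
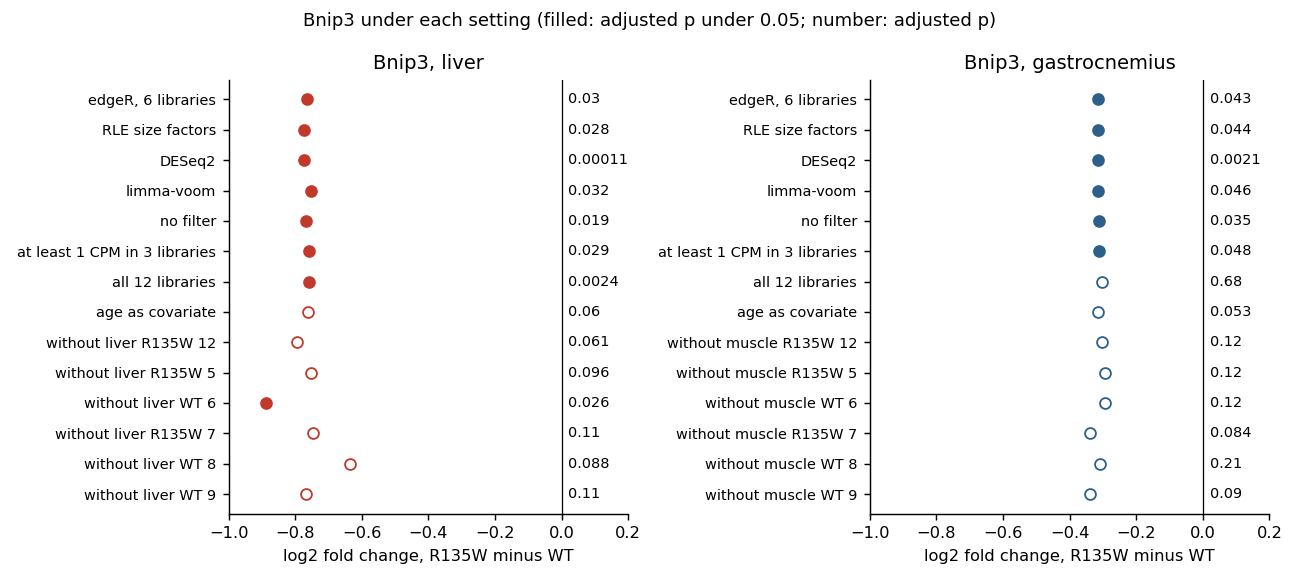
Log2 fold change of Bnip3 (R135W minus WT) in liver and in gastrocnemius under each processing setting and with each library left out; filled points are called at an adjusted p under 0.05, and the adjusted p stands at the right. Every point lies below 0, between -0.89 and -0.64 in liver and between -0.34 and -0.29 in muscle, while only some are filled.

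Some cell type markers moved with genotype beside Bnip3. Of all genes 3.28% were called in liver and 0.875% in muscle by edgeR. An unadjusted p under 0.05 was reached by 17.6% and 11.5% of them. Macrophage markers summed to 1003 to 1063 CPM in R135W liver and 356 to 577 CPM in WT liver, and 11 of 12 were called higher, among them Emr1 at 1.53 (SE 0.17) and Marco at 2.12 (SE 0.24) on the log2 scale. Hepatocyte markers summed to 72062 to 79678 CPM in R135W liver and 88927 to 90745 CPM in WT liver, and 0 of 6 were called by edgeR (1 at an unadjusted p under 0.05). While 4 of the 6 were lower in R135W liver, Tat (1736 against 1600 CPM) and Cps1 (3398 against 3143 CPM) had higher means there. In muscle the macrophage sums overlapped, at 53.0 to 65.6 CPM in R135W and 48.7 to 62.5 CPM in WT, with 0 of 7 tested markers called (0 at an unadjusted p under 0.05) and Vsig4 at 0 in R135W muscle. Endothelial markers summed to 246 to 269 CPM in R135W muscle and 193 to 211 CPM in WT muscle. Of these, 1 of 6 was called by edgeR (5 at an unadjusted p under 0.05). It was Kdr, a receptor for vascular growth factor, higher at 0.77 (SE 0.08). Stab2 of the same list went the other way, at a mean of 5.55 CPM in R135W muscle and 7.03 CPM in WT muscle. Stromal markers summed to 263 to 270 CPM in R135W liver and 209 to 266 CPM in WT liver. Of these, 1 of 7 was called by edgeR (3 at an unadjusted p under 0.05), Col1a1, higher at 0.67 (SE 0.14). Another 3 had lower means in R135W liver: Dcn (127 against 132 CPM), Pdgfra (5.73 against 6.98 CPM) and Lrat (14.7 against 19.6 CPM). Lymphocyte markers summed to 11.4 to 15.6 CPM in R135W liver and 6.86 to 10.1 CPM in WT liver, with 0 of 8 called by edgeR (4 at an unadjusted p under 0.05). Of the erythroid markers 0 of 7 tested were called in each tissue by edgeR (0 at an unadjusted p under 0.05). Hba-a1 had the same values as Hba-a2, Hbb-bs as Hbb-b1 and Hbb-bt as Hbb-b2, so these are not separate markers. Of the nerve markers 0 of 2 tested in liver and 0 of 4 in muscle were called by edgeR (0 at an unadjusted p under 0.05). Traces of hepatocyte RNA in muscle summed to 1.56 to 40.3 CPM in R135W and 0.325 to 6.89 CPM in WT. The part of these cells in the Bnip3 difference, and in the other liver and muscle differences given here, was not tested.

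Bnip3l, whose product NIX clears mitochondria from maturing red cells, is the closest relative of Bnip3 and was not called. In liver it stood at 60.4, 70.3 and 75.9 CPM in R135W animals 5, 7 and 12, against 72.1, 82.0 and 84.1 CPM in WT animals 6, 8 and 9. In muscle it stood at 83.3, 76.5 and 75.8 CPM in R135W and 84.6, 80.5 and 77.0 CPM in WT. The genotypes overlapped in both tissues, with log2 fold changes of -0.21 (95% interval -0.49 to 0.07, adjusted p = 0.421, edgeR) in liver and -0.05 (-0.20 to 0.10, adjusted p = 0.839) in muscle. The liver interval does not exclude a decrease of Bnip3l as large as the one of Bnip3 in muscle. A pseudogene of Bnip3l exists in the mouse genome and was not among the counted genes, so reads that align to both may be lost to Bnip3l.

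Per kilobase of exon, Bnip3 exceeded Bnip3l in every library, and by less in R135W mice. The ratio was 4.19, 3.53 and 3.56 in R135W livers 5, 7 and 12, against 4.97, 6.27 and 5.15 in WT livers 6, 8 and 9. In muscle it was 4.14, 4.80 and 4.71 in R135W and 5.37, 5.49 and 5.47 in WT. The ratio of R135W lay below that of WT in both tissues with no overlap, which describes the difference of Bnip3 against its paralog and was given no test of its own.

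Of the other outer membrane receptors, none was called between genotypes. Fundc1 encodes a receptor held back by phosphates that SRC and casein kinase place on it, and PGAM5 removes the one of casein kinase. It stood at 9.37, 8.86 and 8.68 CPM in R135W livers and 8.62, 9.40 and 7.87 CPM in WT livers, and at 35.9, 35.1 and 32.1 CPM in R135W muscles and 35.7, 32.4 and 32.4 CPM in WT muscles. Its groups overlapped, with log2 fold changes of 0.05 in liver and 0.03 in muscle.

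Bcl2l13, a BCL2 relative that can stand in for the yeast receptor Atg32, stood at 36.1, 38.6 and 46.2 CPM in R135W livers and 41.6, 37.5 and 48.0 CPM in WT livers. In muscle it stood at 119, 117 and 133 CPM in R135W and 119, 120 and 125 CPM in WT. R135W animal 12 was the highest of its group in both tissues, and the genotypes overlapped. The log2 fold changes were -0.08 in liver and 0.00 in muscle.

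Fkbp8 encodes an immunophilin of the outer membrane that draws in LC3A. It stood at 318, 279 and 271 CPM in R135W livers and 259, 256 and 295 CPM in WT livers, and at 124, 126 and 141 CPM in R135W muscles and 126, 139 and 122 CPM in WT muscles. These groups overlapped too, with log2 fold changes of 0.10 in liver and 0.00 in muscle. Phb2, the prohibitin of the inner membrane that also scaffolds it, stood at 204, 210 and 187 CPM in R135W livers and 225, 202 and 227 CPM in WT livers. In muscle Phb2 stood at 111, 115 and 119 CPM in R135W and 116, 126 and 123 CPM in WT. Each WT group of Phb2 reached higher, yet the ranges overlapped, with log2 fold changes of -0.13 in liver and -0.09 in muscle.

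The kinase of the ubiquitin route was likewise not called. Pink1 stood at 187, 173 and 186 CPM in R135W livers and 178, 170 and 187 CPM in WT livers. In muscle it stood at 1137, 938 and 1002 CPM in R135W and 928, 1084 and 943 CPM in WT. The genotypes overlapped, with log2 fold changes of 0.02 (95% interval -0.23 to 0.28) in liver and 0.05 (-0.16 to 0.25) in muscle.

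Over the 6 genes other than Bnip3, log2 fold changes ran from -0.21 to 0.10 in liver (adjusted p 0.421 to 0.934, edgeR) and from -0.09 to 0.05 in muscle (0.621 to 0.993). None of the 6 reached an unadjusted p under 0.05 in either tissue (0 of 6), while 17.6% of all genes did in liver and 11.5% in muscle. The outer bounds of their intervals were -0.49 and 0.39 in liver and -0.23 and 0.25 in muscle. The interaction with tissue was called for 0 of the 7 by edgeR, with Bnip3 as the 1 gene at an unadjusted p under 0.05.

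**Figure D3:**
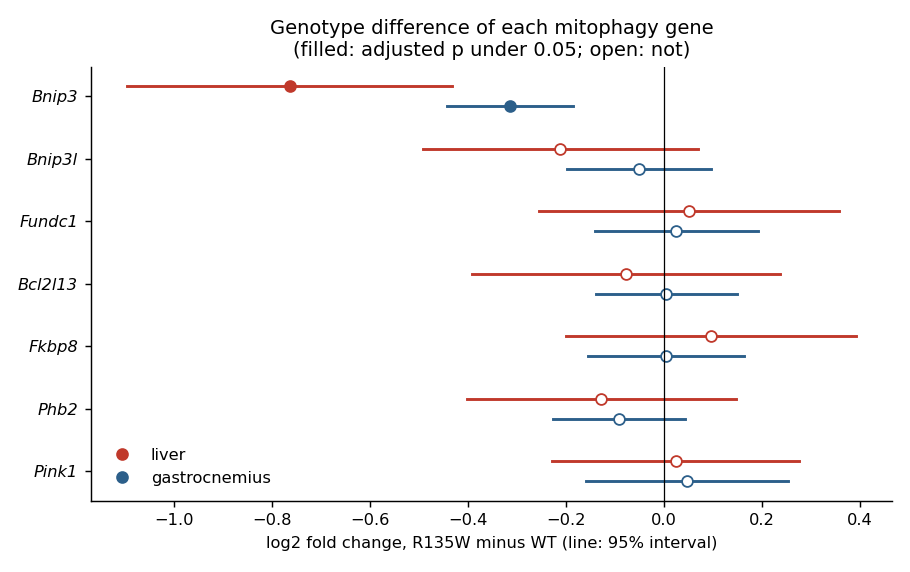
Log2 fold change (R135W minus WT) of each of the 7 genes in liver and gastrocnemius with its 95% interval from edgeR's fit; filled points are called at an adjusted p under 0.05. Bnip3 is filled in both tissues, at -0.76 and -0.31, and the intervals of the other genes all include 0.

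Most of these genes stood further apart between the tissues than between the genotypes. In WT animals 5 of the 7 differed between liver and gastrocnemius, where 81.5% of all genes did. Pink1 was 5.43-fold lower in liver than in muscle, Fundc1 3.82-fold and Bcl2l13 2.82-fold lower. Fkbp8 was 2.12-fold and Phb2 1.82-fold higher in liver. Their adjusted p-values ran up to 2.89e-05 (edgeR, not paired by animal), and the libraries of the tissues did not overlap, as for 84.1% of all genes. Bnip3 averaged 236 CPM in WT liver and 238 CPM in WT muscle (log2 0.01, 95% interval -0.30 to 0.31, adjusted p = 0.956, edgeR). Bnip3l averaged 79.4 CPM in WT liver and 80.7 CPM in WT muscle (log2 -0.00140, 95% interval -0.21 to 0.21). These relatives were the 2 of the 7 genes whose liver and muscle libraries overlapped in WT animals.

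Levels of different genes were compared as CPM per kilobase of exon. In R135W liver Fkbp8 (153) and Phb2 (147) led, with overlapping libraries, then Bnip3 (79.4) and Pink1 (77.0), also overlapping, then Bnip3l (21.3), Bcl2l13 (5.81) and Fundc1 (4.60). In WT liver the order was Phb2 (160), Fkbp8 (142), Bnip3 (134), Pink1 (75.4), Bnip3l (24.5), Bcl2l13 (6.11) and Fundc1 (4.43). There Phb2 overlapped with Fkbp8 and Fkbp8 with Bnip3. In WT liver every Bnip3 library was above every Pink1 library, and in R135W liver the libraries of these genes overlapped.

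Muscle had another order. In R135W muscle Pink1 led at 433 CPM per kilobase, 57.3% of the sum over the 7 genes, ahead of Bnip3 (110), Phb2 (84.8), Fkbp8 (68.9), Bnip3l (24.3), Bcl2l13 (17.7) and Fundc1 (17.6). In WT muscle Pink1 stood at 416, 54.1% of the sum, ahead of Bnip3 (136), Phb2 (89.5), Fkbp8 (68.1), Bnip3l (24.9), Bcl2l13 (17.5) and Fundc1 (17.2). The order was the same in both genotypes, and in each the only neighbours with overlapping libraries were Bcl2l13 and Fundc1. In liver, every Fundc1 library was below every library of the other genes in both genotypes.

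**Figure D4:**
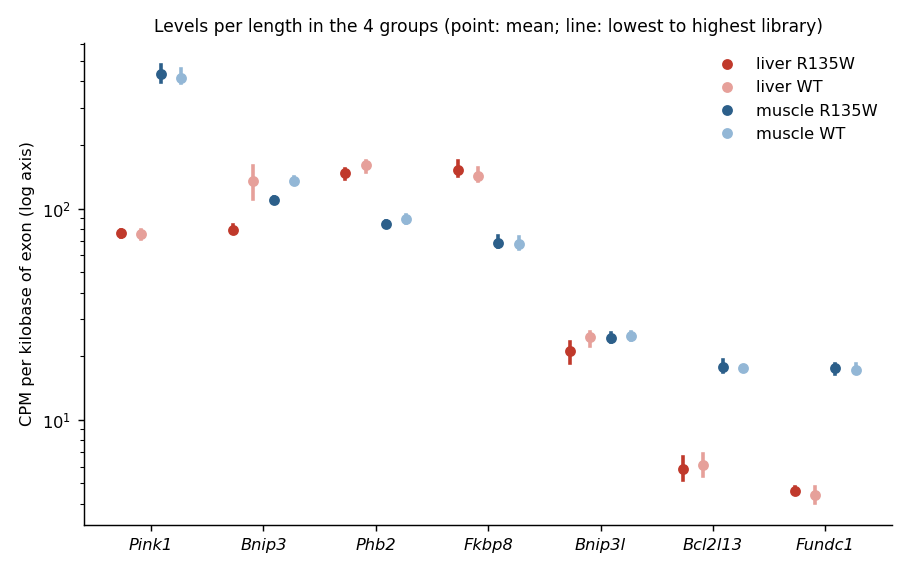
Mean level of each gene in CPM per kilobase of exon on a log axis in liver R135W, liver WT, muscle R135W and muscle WT, with lines from the lowest to the highest of 3 libraries. Pink1 stands at 433 and 416 in R135W and WT muscle, Fundc1 is lowest in liver, and Bnip3 in R135W liver (79.4) lies below its other groups.

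Once each tissue's mean was taken out, the genes whose log2(CPM + 1) varied most like Bnip3 over the 12 libraries were Wwp1 (r = 0.954), Slc25a16 (0.950) and Clcn4-2 (0.950), out of 12413 genes. This is a description over libraries that share animals and genotypes. Wwp1, a ubiquitin ligase gene, and Slc25a16, a mitochondrial carrier gene, had log2 fold changes of -0.40 and -0.43 in liver (adjusted p = 0.148 and 0.0871, edgeR), and neither was called. Bnip3l followed Bnip3 at r = 0.714, the highest of the 21 pairs among the 7 genes, and the lowest pair was Fundc1 with Bcl2l13 at -0.802. Among all 12413 genes, though, Bnip3l held only rank 748 in likeness to Bnip3. For Pink1 the nearest genes were Pde12 (0.812), Rnf145 (0.794) and Myo10 (0.787).

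The rest of the pathway was read in 10 lists, written with earlier results of these data known. In liver 133 were tested, and 1 was called higher and 2 lower, 2.26% against the 3.28% of all genes. In muscle 134 were tested and 1 was called lower, 0.746% against 0.875%. An unadjusted p under 0.05 was reached by 23 of them in liver and 16 in muscle. The median log2 fold change was -0.07 in liver and -0.05 in muscle, against -0.00507 and -0.00020 over all genes. These shares lie near the background.

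A list of 11 genes joined FUNDC1 switch genes, such as Pgam5, Src and Csnk2a1, with other proposed receptors. It also held Fundc2, Bcl2l1, Phb, Nipsnap1, Gbas, Nlrx1, Mcl1 and Ambra1. Of the 11, 0 were called in either tissue by edgeR (0 and 1 at an unadjusted p under 0.05). The medians were 0.05 in liver and 0.00 in muscle. Src, a kinase that phosphorylates FUNDC1, stood at 0.53 in liver (SE 0.26, adjusted p = 0.348), or 0.31 to 0.75 with a library left out, and 0.39 in muscle (SE 0.16, adjusted p = 0.391). Pgam5, the phosphatase that removes the casein kinase phosphate from FUNDC1, stood at -0.14 in muscle (SE 0.06, adjusted p = 0.437). None of these passed the test.

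Ligases and other factors that set the turnover of mitophagy proteins such as NIX and BNIP3 had 0 of 11 called in either tissue by edgeR (2 and 1 unadjusted), with medians of -0.14 in liver and -0.04 in muscle. March5, an outer membrane ligase that turns over FUNDC1, stood at 68.2, 74.0 and 69.6 CPM in R135W livers and 85.8, 92.3 and 82.4 CPM in WT livers (log2 -0.30, adjusted p = 0.181). Mul1, another outer membrane ligase, stood at 57.4, 47.9 and 52.5 CPM in R135W livers and 40.9, 41.4 and 44.8 CPM in WT livers (log2 0.31, adjusted p = 0.198). Both had libraries fully apart between genotypes, as did 23.7% of all genes in liver, and neither was called. Pptc7, a phosphatase that restrains BNIP3 and NIX, stood at -0.24 in muscle (SE 0.11, adjusted p = 0.424), or -0.32 to -0.10 with a library left out.

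Of the translocase and protease genes that import and cleave PINK1, 0 of 12 were called in either tissue by edgeR (1 unadjusted in each), with medians of -0.08 and -0.05. Tomm7, the small translocase subunit that holds PINK1 on the outer membrane, stood at 27.1, 29.1 and 24.2 CPM in R135W livers and 37.0, 40.4 and 33.1 CPM in WT livers. The groups did not overlap, with a log2 difference of -0.46 (SE 0.13, adjusted p = 0.0969), short of the threshold. Genes of the outer membrane and of mitochondrial dynamics (Mfn1, Rhot1, Vdac1 and others) had 0 of 13 called in either tissue by edgeR (1 unadjusted in liver, 0 in muscle). Their medians were -0.07 in liver and -0.04 in muscle.

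The adaptors that link ubiquitin to LC3 had 0 of 7 tested genes called in either tissue by edgeR (2 and 1 unadjusted), with medians of -0.18 and -0.11. Optn, the optineurin gene, stood at 83.0, 102 and 83.1 CPM in R135W livers and 137, 116 and 115 CPM in WT livers. In muscle Optn stood at 66.6, 67.2 and 72.6 CPM in R135W and 74.6, 84.7 and 82.9 CPM in WT. Its libraries were fully apart in both tissues, as were those of 23.7% of all genes in liver and 16.2% in muscle, but the log2 fold changes of -0.47 (SE 0.14, adjusted p = 0.120) and -0.24 (SE 0.07, adjusted p = 0.193) did not pass. The 5 genes of the LC3 and GABARAP family, to which the receptors bind, had 0 called in either tissue by edgeR (1 unadjusted in liver, 0 in muscle), with medians of -0.18 and -0.09.

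Among genes of autophagosome formation, 1 of 26 was called lower in liver and 0 of 27 in muscle by edgeR (4 and 5 unadjusted). The gene that fell was Atg3, which encodes the enzyme that couples LC3 and GABARAP proteins to membrane lipid. It stood at 56.5, 54.4 and 51.4 CPM in R135W livers and 73.4, 88.2 and 75.7 CPM in WT livers, with no overlap. Its log2 fold change was -0.55 (SE 0.11, adjusted p = 0.0360, edgeR). In muscle Atg3 averaged 18.7 ± 1.64 CPM in R135W and 17.4 ± 0.666 CPM in WT and was not called (log2 0.10, adjusted p = 0.737). The difference between tissues did not pass either (adjusted p = 0.101). Vmp1, a membrane scramblase gene that shares 3.32% of its exon bases with Mir21, stood at 51.2, 50.6 and 51.5 CPM in R135W muscles and 65.9, 60.2 and 62.0 CPM in WT muscles (log2 -0.31, adjusted p = 0.0516).

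Of 14 lysosome genes 1 was called higher in liver and 0 in muscle by edgeR (4 and 0 unadjusted). Hexa, which encodes a subunit of the lysosomal hexosaminidase, stood at 65.4, 68.8 and 67.8 CPM in R135W livers and 40.9, 40.5 and 51.5 CPM in WT livers. The groups did not overlap, with a log2 difference of 0.60 (SE 0.12, adjusted p = 0.0387). Macrophage markers were higher in the same R135W livers, as given above, and their part in this was not tested.

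Transcription factors that drive mitophagy or autophagy genes held 1 call in each tissue among 12 tested, both lower (edgeR; 4 in liver and 3 in muscle at an unadjusted p under 0.05). In liver it was Ppara, the lipid-sensing nuclear receptor, with 185, 223 and 220 CPM in R135W and 294, 324 and 365 CPM in WT. Its groups did not overlap, with a log2 difference of -0.65 (SE 0.14, adjusted p = 0.0437). In muscle it was Foxo1, a nutrient-sensing factor that drives autophagy genes in muscle, with 19.5, 18.8 and 27.3 CPM in R135W and 69.8, 87.3 and 62.8 CPM in WT. Foxo1 fell by 1.76 on the log2 scale (SE 0.15, adjusted p = 0.00586, edgeR). In liver Foxo1 stood at 25.8, 38.7 and 56.6 CPM in R135W and 35.6, 47.2 and 34.7 CPM in WT, which overlapped, and the difference between tissues did not pass (adjusted p = 0.0886). Foxo1 kept its call in each of the 7 other settings and with each library left out, whereas Atg3, Hexa and Ppara lost theirs in all 6 fits with a liver library left out (adjusted p between 0.0510 and 0.162). The genes of HIF subunits and Foxo3 were not called, and are named here after their values were seen. Hif1a stood at -0.30 in liver (SE 0.11, adjusted p = 0.218, edgeR) and 0.04 in muscle (adjusted p = 0.934). Epas1, which encodes HIF-2 alpha, stood at -0.39 in liver (SE 0.13, adjusted p = 0.158, edgeR) and -0.15 in muscle (adjusted p = 0.503). Every R135W liver was below every WT liver for both genes, as for 9.54% of all genes in liver. Arnt, the gene of their partner subunit, averaged 42.3 CPM in R135W liver and 40.2 CPM in WT liver, with overlapping libraries. Foxo3 stood at 0.11 in liver (adjusted p = 0.911, edgeR) and -0.48 in muscle (SE 0.12, adjusted p = 0.160). Every R135W muscle was below every WT muscle, as for 7.14% of all genes, but narrowly. The highest R135W library had 21.2 CPM and the lowest WT library 21.4 CPM.

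A list of 22 other HIF target genes held 0 calls in liver and 0 in muscle by edgeR. Of all genes 3.28% were called in liver and 0.875% in muscle, so 0 of 22 lies near those shares. An unadjusted p under 0.05 was reached by 4 in each tissue, against 17.6% of all genes in liver and 11.5% in muscle. Their medians were 0.06 and -0.01, and 10 of 22 in liver and 11 of 22 in muscle were negative. Pdk1, a kinase that inhibits pyruvate dehydrogenase, stood at -0.68 in liver (SE 0.25, adjusted p = 0.211), or -0.88 to -0.39 with a library left out. Pfkfb4, a glycolysis regulator, stood at 0.67 in liver (SE 0.23, adjusted p = 0.181). Pfkfb3, its relative, stood at 594, 290 and 762 CPM in R135W muscles and 250, 202 and 223 CPM in WT muscles (log2 1.27, SE 0.27, adjusted p = 0.0779).

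**Figure D5:**
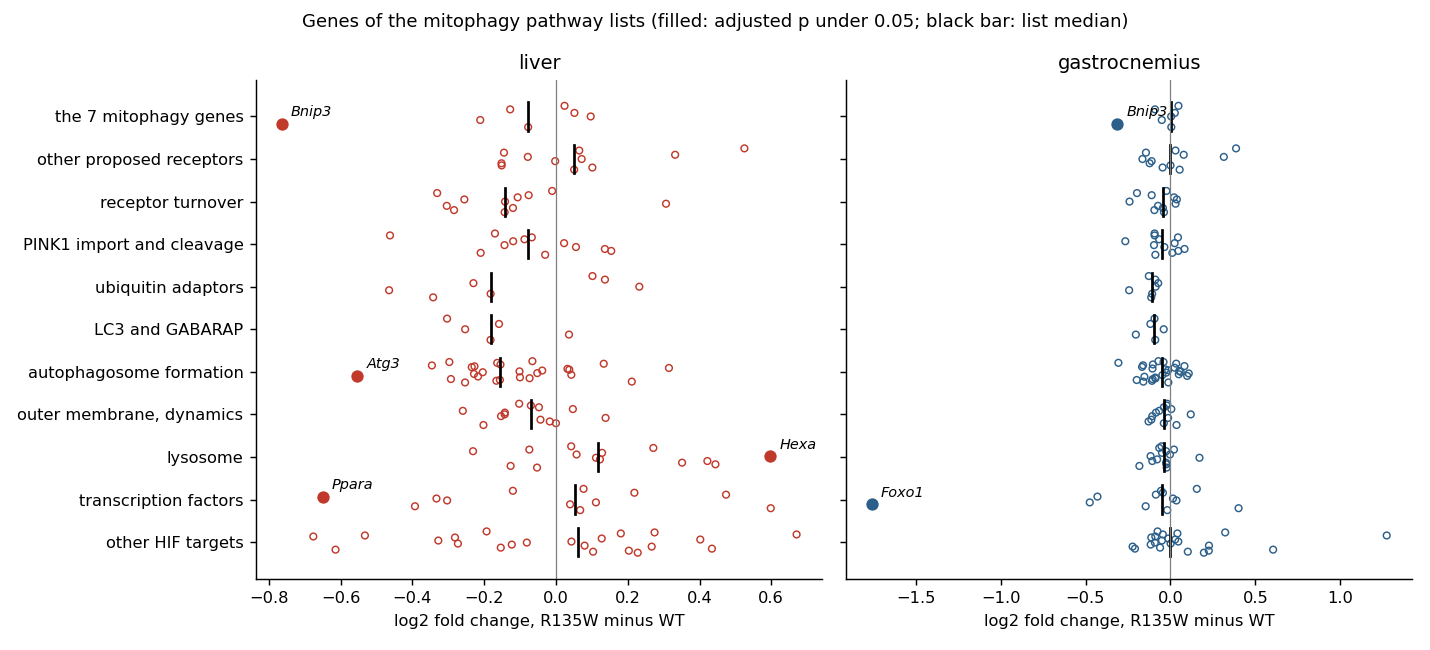
Log2 fold change (R135W minus WT) of each tested gene of the 7 mitophagy genes and the 10 pathway lists in liver and in gastrocnemius, each panel on its own axis; filled points are called at an adjusted p under 0.05 and black bars mark list medians. Bnip3 is filled in both tissues, Atg3, Ppara and Hexa in liver, and Foxo1 in muscle.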

How the data were processed

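The deposited files give raw counts per gene and no normalization. Per the file headers, the authors used featureCounts 1.5.2 on UCSC mm10 exons grouped by gene symbol; read pairs were counted from primary alignments, with strand ignored, and a pair over several genes was given to each. Genes with shared exons therefore share counts, which held for none of the 7 genes. The submitters' processing notes name STAR 2.4.0. Gene lengths used per kilobase are the exon lengths deposited beside the counts.

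All 12 libraries were used. The 6 libraries of a tissue entered the genotype test in edgeR 4.0.16 under R 4.3.3 (TMM, filterByExpr, quasi-likelihood F test, Benjamini-Hochberg over all tested genes). The interaction used all 12 libraries, and the tissue comparison the 6 WT libraries. P-values of the genotype tests measure the spread between these animals. The main fits of the interaction and the tissue comparison had no animal term. Their p-values treat libraries of the same animal number as independent. SE is the log2 fold change over the square root of F. Other settings were DESeq2 1.42.0, RLE factors, limma-voom (limma 3.58.1), 2 filters, age as a covariate, 1 fit of all 12 libraries, the animal as a block, and each library left out. Numbers in the titles, with matching ages and genotypes, were read as animals that pair each liver with a muscle, which the labels do not state. Deviations from group means correlated at -0.00676 to 0.103 between libraries of the same number and -0.107 to 0.104 between those of different numbers. Replicate pairs gave chi-squared values of 8.07 to 118 per degree of freedom, beyond counting error.

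The 7 genes and all gene lists were chosen with earlier results of these data known. Named genes are the 7, Mars2 and, per list and comparison, up to 4 called genes or up to 2 with the smallest p, plus the 3 genes most like Bnip3 and like Pink1. Sec24a, Hif1a, Epas1, Arnt, Foxo3 and individual cell type markers were named after their values were seen. On simulated data edgeR recovered 68% of 2-fold and 94% of 4-fold changes among 13935 genes in liver and 85% and 98% among 13826 in muscle. Of its calls there 8.47% in liver and 7.58% in muscle were false, and of those of DESeq2 14.7% and 12.4%. For the interaction edgeR recovered 45% of 2-fold and 87% of 4-fold changes among 15414 genes. Changes under 2-fold were not simulated. The Bnip3 differences were smaller than that, at 1.70-fold in liver, 1.24-fold in muscle and 1.37-fold for the interaction, so these recoveries do not cover them. Promoters are RefSeq's (GRCm38.p6). A further gene of this group is not reported here.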

Additional observations from a re-analysis of the deposited data

How the results depend on the processing

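Bnip3 was lower in R135W than in WT in all 13 alternative fits of each tissue. Its call held in 6 of 7 settings in liver and 5 of 7 in muscle. The number of the 7 genes called was 0 with age as a covariate in each tissue and 0 in muscle with all 12 libraries, and 0 to 1 in liver and 0 to 0 in muscle with a library left out. Genes called overall in liver were 781 with DESeq2, 1057 with all 12 libraries, 274 with age and 84 to 285 with a library left out, against 457; in muscle 274 with DESeq2, 20 with all 12 libraries and 3 to 106 with a library left out, against 121. The interaction had 184 with DESeq2, 7 with limma-voom and 6 to 34 with a library left out, against 20, and Bnip3 was called there in none of 18 fits. The cause of these shifts was not tested. With the animal as a replicate block the Bnip3 interaction was -0.44 (adjusted p = 0.478), and the block changed no call of the 7 genes.

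Only differences close to 0 turned sign. Between WT liver and muscle, Bnip3 stood at -0.00518 with limma-voom, -0.0138 with no filter, -0.00479 with the replicate block and -0.132 to 0.132 with a library left out. There Bnip3l stood at 0.00562 with RLE, 0.00573 with DESeq2, 0.00544 with at least 1 CPM in 3 libraries and -0.0533 to 0.0655 with a library left out. With a library left out the liver differences ran from -0.0120 to 0.110 (Fundc1), -0.182 to 0.0216 (Bcl2l13) and -0.0171 to 0.0598 (Pink1). In muscle they ran from -0.00887 to 0.0853 (Fundc1), -0.0420 to 0.0402 (Bcl2l13), -0.0419 to 0.0615 (Fkbp8) and -0.0364 to 0.120 (Pink1). The interactions ran from -0.0457 to 0.0834 (Fundc1), -0.199 to 0.00927 (Bcl2l13), -0.0984 to 0.00527 (Phb2) and -0.106 to 0.0491 (Pink1). Levels per kilobase moved by less than 1 SD when libraries were scaled within each tissue. Fundc1, at 188 to 287 counts in R135W liver and 185 to 199 in WT liver, had the fewest counts of the 7, and 3 animals per group limit all of them.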
